A study of Mus musculus with 12 samples.

Results

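Solute carriers (SLC) are membrane proteins that move ions, sugars, amino acids, nucleotides, vitamins and metals across the plasma membrane and the membranes of organelles. The genes described here were the protein-coding genes with an SLC symbol whose estimated count averaged at least 100 over the 12 libraries, and they numbered 181 of the 45777 genes in the deposited table. Of 371 protein-coding SLC symbols, 86 had no count in any library, 98 had a count with a mean under 100, and 6 were left out by name (Slc2a1, Slc7a11, Slc30a1, Slc39a4, Slc39a10 and Slc39a14). The 181 were therefore chosen by their mean count, and their levels are a description. Just inside the limit lay Slc26a6 and Slc17a9, with mean counts of 105.25 and 105.3, and just outside it lay Slc25a43 and Slc2a9, with 99.3 and 99.6. All 181 passed the low-count filter of the test. Only 5 of them (Slc12a5, Slc17a9, Slc26a6, Slc28a3 and Slc2a4) averaged under 100 counts in at least 1 of the 4 groups. Slc28a3 was among the 181 only through the control dDAVP libraries: its mean counts were 71.3 (control vehicle), 260.3 (control dDAVP), 48.3 (TAZ vehicle) and 79.7 (TAZ dDAVP), and 66.4 without the control dDAVP group. Its differences from that group are therefore given with no test, although it is 1 of the genes counted. Slc17a9 was likewise admitted only with the TAZ vehicle group, with a mean count of 127.3 in that group and 98.0 without it.

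RNA was sequenced from mpkCCDc11, a single mouse cell line that derives from the cortical collecting duct of the kidney. All cells were unmodified (labelled WT), were grown on permeable filters and were starved of serum and hormones before treatment. The 4 groups, with 3 libraries each, were control siRNA with vehicle, control siRNA with dDAVP at 1e-09 M on the basolateral side, TAZ siRNA with vehicle, and TAZ siRNA with the same dDAVP. The agent dDAVP is a vasopressin analogue that acts on the V2 receptor and raises cAMP, and TAZ, encoded by Wwtr1, is a coactivator that works with the TEAD transcription factors. The labels list several exposure times without saying which one these libraries had, and they do not say whether libraries of a group were separate cultures, so p-values measure only the spread between these libraries. Libraries are named below by siRNA, treatment and number, such as control vehicle 1.

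Carriers of the plasma membrane work as uniporters, exchangers or cotransporters that use the gradients of sodium, protons or chloride, while family 25 carries metabolites, nucleotides and phosphate through the inner mitochondrial membrane. In the collecting duct, carriers of this superfamily take up osmolytes such as myo-inositol and taurine, exchange acid and base, set cell volume through cation and chloride cotransport, and carry urea. Vasopressin is known there for raising water and urea permeability.

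Total counts per library ran from 45095331 to 61725339, and the 181 genes held from 1.05 to 1.13% of them. Principal component 1, with 19.9% of the variance, set all dDAVP libraries (8.07 to 28.7) apart from all vehicle libraries (-27.7 to -12.2). Component 2, with 12.3%, set all control siRNA libraries (8.98 to 22.7) apart from all TAZ siRNA libraries (-37.0 to -6.23). Principal component 3, with 10.0% of the variance, set TAZ dDAVP 2 and TAZ dDAVP 3 at opposite ends, at -38.5 and 24.2. Wwtr1 was at 179, 186 and 177 CPM (counts scaled to library size, with TMM factors) in the control vehicle libraries and at 119, 114 and 115 CPM in the TAZ vehicle libraries. With dDAVP it was at 174, 161 and 164 CPM with control siRNA and at 107, 127 and 109 CPM with TAZ siRNA, so that its message was lowered and not removed. Aqp2, the water channel of principal cells, was at or under 0.343 CPM in all 6 vehicle libraries and at 9.10 to 44.8 CPM in the 6 dDAVP libraries. In such bulk libraries a lower level can mean fewer cells of a kind or less RNA per cell, which cannot be told apart. Markers of other nephron segments, intercalated cells and other tissues are given with the last results.

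By level per transcript length, most of the genes were moderately expressed. Levels are the FPKM per gene deposited by the authors, which scale fragments by transcript length and depth. They had a median of 8.48 over the 181 genes and ran from 0.312 to 227. Of the 181, 171 reached 1 FPKM, 84 reached 10 FPKM and 12 reached 50 FPKM. The highest were Slc25a3, the mitochondrial phosphate carrier (227 FPKM), Slc38a2, a sodium-coupled neutral amino acid transporter (153 FPKM), the ADP/ATP carriers Slc25a4 (118 FPKM) and Slc25a5 (102 FPKM), and Slc7a1, a cationic amino acid transporter (78.02 FPKM). These 5 held 22.6% of the summed FPKM of the 181. Grouped by what their families carry, the 39 mitochondrial carriers held 33.02% of the sum, and the 17 carriers of amino acids and peptides followed. The 4 members with SLC symbols that are not carriers were the scaffolds Slc9a3r1 and Slc9a3r2, the adaptor Slc4a1ap and Slc7a6os, a gene opposite to Slc7a6. The other 177 fell into 43 families.

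**Figure D1:**
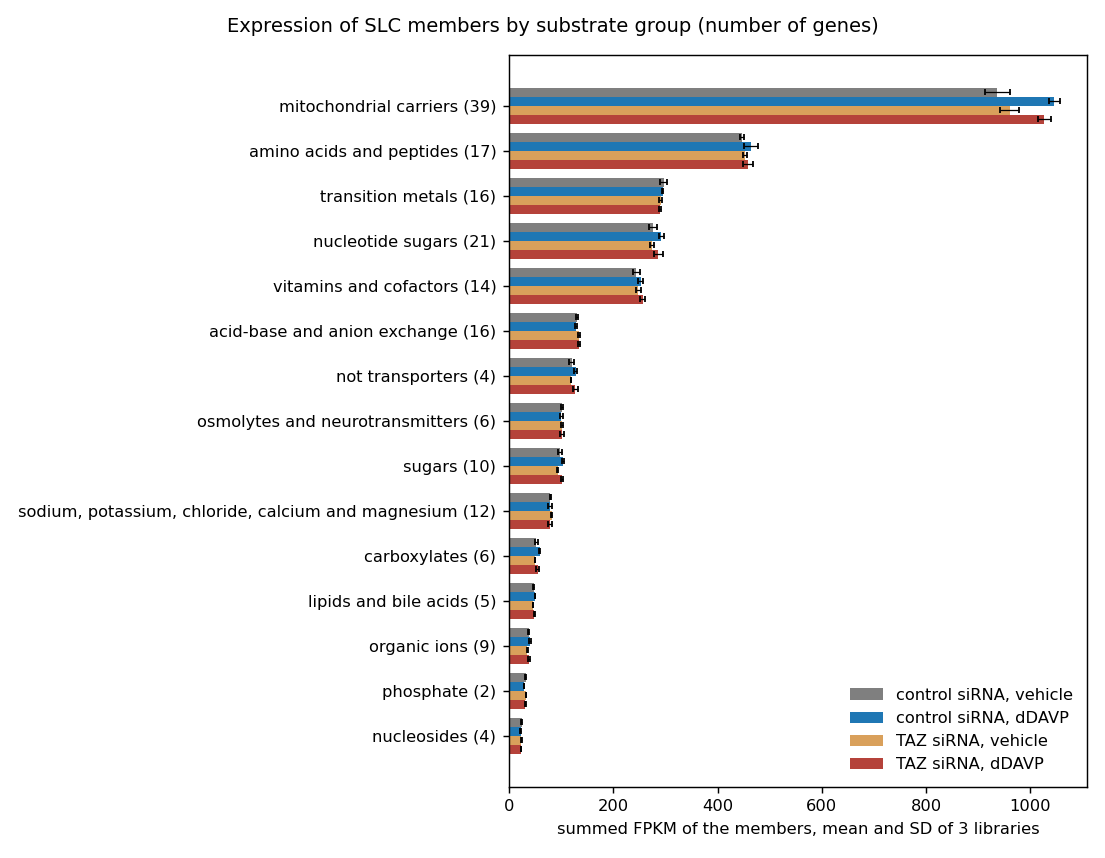
Summed FPKM (x axis) of the SLC genes of each substrate group (y axis, number of genes in brackets) in the 4 groups, as bars with the mean and SD of 3 libraries. Mitochondrial carriers had the highest sum in each of the 4 groups, with 936 ± 23.97 FPKM in the control vehicle group and 1046 ± 10.5 FPKM in the control dDAVP group.

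The first comparison asked which carriers changed with dDAVP in cells with control siRNA. More of them rose than fell: 38 were called higher and 18 lower, 56 of 181 or 30.9%, where a call is an adjusted p under 0.05. The p-values came from edgeR's quasi-likelihood F test and were adjusted by the Benjamini-Hochberg method across 15932 genes. Of all genes tested 19.2% were called, 9.72% higher and 9.48% lower, and of the 11875 genes with a mean count of at least 100, where calls are easier, 24.3% were called. The median log2 fold change was 0.03 over the 181 carriers and 0.00 over all genes. Most changes were small, with 23 of the 56 under 0.25 on the log2 scale in size, 9 of at least 0.5 and 1 (Slc28a3) of at least 2-fold. Slc28a3, admitted only through the control dDAVP libraries, is counted here and among the 38 called higher. Values in brackets after a gene are log2 fold changes of counts ± SE, and an adjusted p followed by a library name is the value without that library, given where leaving it out ended the call. When each of the 12 libraries was left out in turn, 37 of the 56 kept their call in all 12 fits, 27 of them higher and 10 lower.

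By substrate, the shares called are set beside 19.2% of all genes tested and 24.3% of genes with a mean count of at least 100. Mitochondrial carriers were called higher in 12 and lower in 2 of 39 (35.9%). Amino acid and peptide carriers were higher in 4 and lower in 0 of 17 (23.5%), and carboxylate carriers in 3 and 0 of 6 (50.0%). Acid-base and anion exchangers were higher in 0 and lower in 3 of 16 (18.75%). Carriers of osmolytes and neurotransmitters were higher in 0 and lower in 2 of 6 (33.3%). Groups follow the family number, so the osmolyte carrier Slc5a3, which rose, is counted with the sugars. Calls went both ways for sugar carriers (4 higher and 2 lower of 10, 60.0%), nucleotide sugar carriers (3 and 1 of 21, 19.05%) and transition metal carriers (1 and 1 of 16, 12.5%). The group medians ran from -0.14 for the 2 phosphate carriers to 0.12 for the carboxylate carriers. These groups are small, and no group was tested against the others.

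**Figure D2:**
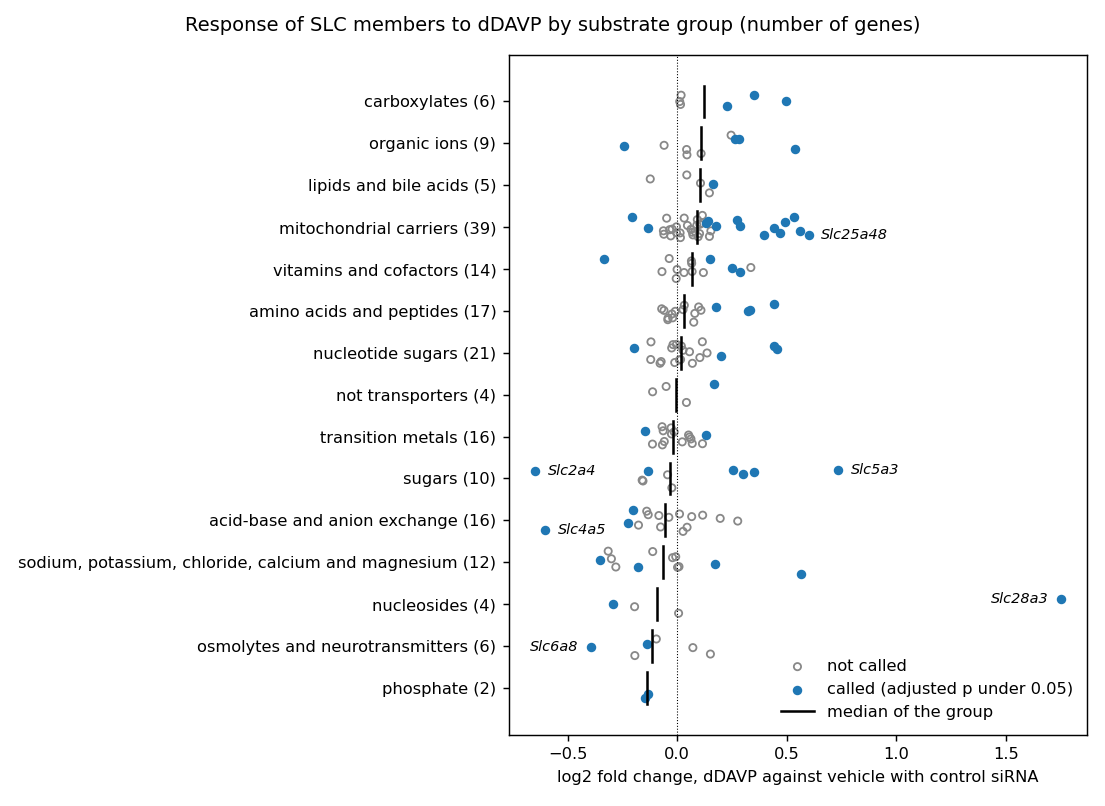
Log2 fold change with dDAVP against vehicle in cells with control siRNA (x axis) for each of the 181 SLC genes, by substrate group (y axis, number of genes in brackets); filled points were called, open points were not, and vertical bars are group medians. Slc28a3 (1.75) and Slc5a3 (0.73) stood at the right, and Slc2a4 (-0.65) and Slc4a5 (-0.60) at the left.

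The carrier with the highest log2 fold change was Slc28a3, the concentrative nucleoside transporter CNT3 that takes up purine and pyrimidine nucleosides with sodium or protons (gene identifier 114304, chromosome 13 from 58553307 to 58610877 in mm10). It was at 1.06, 1.44 and 1.48 CPM in the control vehicle libraries and at 4.91, 4.87 and 3.62 CPM in the control dDAVP libraries (1.75 ± 0.20), the group that brought it over the count limit. With TAZ siRNA it was at 0.710, 1.06 and 0.581 CPM with vehicle and at 1.49, 1.93 and 1.30 CPM with dDAVP (1.01 ± 0.23, adjusted p = 0.00714). The 3 control dDAVP libraries lay above the other 9, and the TAZ dDAVP libraries overlapped with the control vehicle libraries. Slc29a3, a nucleoside carrier of lysosomes, moved the other way, from 52.1, 51.9 and 53.5 to 42.9, 42.8 and 42.8 CPM (-0.29 ± 0.04, adjusted p = 2.75e-05), with no overlap.

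Among sugar and polyol carriers, Slc5a3, the sodium and myo-inositol cotransporter that loads cells with an osmolyte (gene identifier 53881, chromosome 16 from 92058322 to 92087473), rose from 65.1, 61.8 and 62.5 CPM to 114, 102 and 99.3 CPM (0.73 ± 0.06, adjusted p = 5.45e-08). All dDAVP libraries lay above all vehicle libraries, with TAZ siRNA as well, where it rose from 62.6, 64.9 and 57.9 to 87.4, 98.3 and 88.4 CPM (0.56 ± 0.06, adjusted p = 2.39e-06). Its locus overlaps that of Mrps6, a mitochondrial ribosomal protein gene, which rose by 0.56 ± 0.05 with control siRNA and 0.43 ± 0.05 with TAZ siRNA. The sources used here do not say how shared reads were split between the pair. Slc45a3 (0.35 ± 0.06), Slc45a4 (0.26 ± 0.04) and Slc37a1, a glucose-6-phosphate carrier of the endoplasmic reticulum (0.30 ± 0.07), also rose.

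Slc2a4, the insulin-responsive glucose transporter GLUT4, was low and fell further, from 2.21, 2.99 and 2.56 to 1.63, 1.79 and 1.51 CPM (-0.65 ± 0.15, adjusted p = 0.00485). Slc6a8, the creatine transporter (gene identifier 102857, chromosome X from 73673133 to 73682502), fell from 28.01, 30.2 and 32.1 to 22.03, 24.2 and 22.5 CPM (-0.39 ± 0.06, adjusted p = 8.01e-05). Neither gene had a dDAVP library that reached the vehicle range. Other osmolyte carriers did not follow Slc5a3: Slc6a6, the taurine transporter, was at 389, 389 and 390.3 CPM with vehicle and at 418, 408 and 402 CPM with dDAVP (0.07 ± 0.03, adjusted p = 0.157). Slc6a12, the betaine transporter, was below the count limit, with summed counts of 84 in the control vehicle group and 45 in the control dDAVP group.

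**Figure D3:**
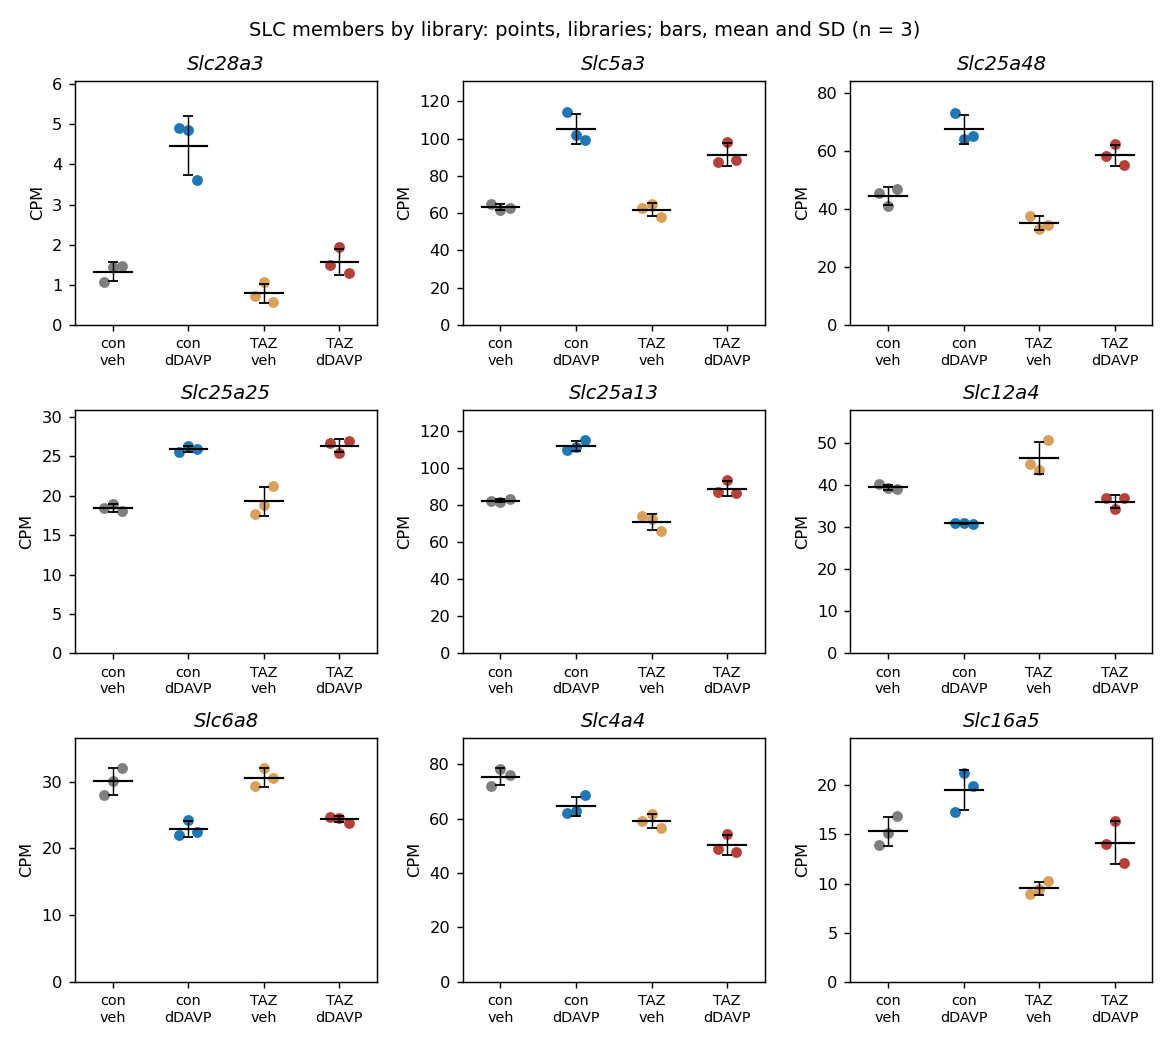
CPM (y axes, from 0) of 9 SLC genes in each of the 12 libraries, with the mean and SD of 3 libraries in each group (x axes; con is control siRNA, veh is vehicle). The 3 control dDAVP libraries of Slc28a3 lay at 3.62 to 4.91 CPM, above the other 9 libraries, and those of Slc12a4 lay below the other 9, at 30.8 to 30.9 CPM.

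Mitochondrial carriers gave the largest number of calls. Slc25a48, a carrier linked to choline import into mitochondria (gene identifier 328258, chromosome 13 from 56437960 to 56472367), rose from 45.5, 41.1 and 46.7 to 73.1, 64.1 and 65.1 CPM (0.60 ± 0.06, adjusted p = 2.47e-06). Slc25a30, first described as a kidney mitochondrial carrier protein (gene identifier 67554, chromosome 14 from 75757534 to 75787037), rose from 29.5, 29.4 and 30.2 to 46.2, 40.7 and 44.6 CPM (0.56 ± 0.06, adjusted p = 1.93e-06). Slc25a13, the aspartate and glutamate exchanger citrin (gene identifier 50799, chromosome 6 from 6041218 to 6217304), rose from 82.5, 82.1 and 83.3 to 110.1, 112 and 115 CPM (0.44 ± 0.04, adjusted p = 6.37e-07). In each of these 3 genes the dDAVP libraries all lay above the vehicle libraries.

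Of 5 further carriers of nucleotides in this family 3 rose, 1 fell and 1 was not called. Slc25a25, a calcium-regulated exchanger of ATP-magnesium and phosphate (gene identifier 227731, chromosome 2 from 32414487 to 32451470), rose from 18.4, 19.02 and 18.03 to 25.6, 26.4 and 25.9 CPM (0.49 ± 0.06, adjusted p = 1.26e-05). Its relative Slc25a23 went slightly the other way, from 109.8, 104 and 108 to 98.7, 100.2 and 95.1 CPM (-0.13 ± 0.03, adjusted p = 0.00824). Slc25a24, the third of these exchangers, was at 129 ± 3.04 and 126 ± 4.57 CPM (SD, n = 3) and was not called (-0.03 ± 0.04). Of these 3 exchangers 1 was thus called higher, 1 lower and 1 not at all. The pyrimidine nucleotide carriers Slc25a36 (0.40 ± 0.07) and Slc25a33 (0.53 ± 0.17) rose, although for Slc25a33 the adjusted p was 0.0318, and from 0.0504 to 0.123 without any 1 of control vehicle 1, 2 and 3 or control dDAVP 1, 2 and 3.

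The abundant ADP/ATP carriers moved by less. Slc25a5 rose from 132, 123 and 131 to 156, 159.5 and 156 CPM (0.28 ± 0.04, adjusted p = 0.000104). Slc25a4 rose from 163, 151 and 164 to 174, 188 and 179 CPM (0.18 ± 0.04, adjusted p = 0.00488). These 2 genes are close in sequence, and no source used here says how the counting split such reads. Slc25a3 rose by 0.13 ± 0.04, with an adjusted p of 0.0206, and from 0.0540 to 0.108 without any 1 of control vehicle 1 and 2 or control dDAVP 1 and 2. Slc25a10, the dicarboxylate carrier, rose by 0.27 ± 0.04. Slc25a35, of unknown substrate, rose as well (0.47 ± 0.13, adjusted p of 0.0145, and from 0.0658 to 0.0707 without any 1 of control vehicle 1 and 2 or control dDAVP 3), and Slc25a40 fell (-0.21 ± 0.06, adjusted p of 0.0328, and from 0.0730 to 0.135 without any 1 of control vehicle 1 and 2 or control dDAVP 2 and 3).

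Of the 17 amino acid and peptide carriers 4 rose. Slc3a2, the heavy chain that brings several amino acid exchangers to the plasma membrane (gene identifier 17254, chromosome 19 from 8706882 to 8723369), rose from 130.2, 124 and 131 to 163, 159.9 and 161 CPM (0.33 ± 0.03, adjusted p = 1.89e-06). Its light chain Slc7a5, the LAT1 exchanger of large neutral amino acids, was at 70.5, 69.3 and 73.8 CPM with vehicle and at 78.6, 74.7 and 77.1 CPM with dDAVP and was not called (0.11 ± 0.07, adjusted p = 0.297, and an adjusted p of 0.0461 when only the compared groups were fitted). Slc43a2, the uniporter LAT4, rose from 40.5, 43.4 and 38.3 to 56.4, 57.01 and 52.5 CPM (0.44 ± 0.06, adjusted p = 7.41e-05). Slc38a6 rose by 0.32 ± 0.05. Slc1a5, the glutamine transporter ASCT2, rose by 0.18 ± 0.05, with an adjusted p of 0.0130, and from 0.0621 to 0.0771 without any 1 of control vehicle 2 or control dDAVP 1 and 3. The amino acid carrier with the highest FPKM, Slc38a2, stayed within 731 to 797 CPM over the 12 libraries and was called in none of the comparisons.

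Carboxylate carriers of family 16 rose in 3 of 6 cases. Slc16a1, the lactate transporter MCT1, rose from 121, 109 and 115 to 132, 136 and 135 CPM (0.23 ± 0.04, adjusted p = 0.000522). Slc16a6, also called MCT7, rose from 7.94, 8.60 and 7.74 to 11.7, 10.6 and 11.98 CPM (0.50 ± 0.09, adjusted p = 0.000427). Slc16a5 rose by 0.35 ± 0.10, with an adjusted p of 0.0207, and from 0.0655 to 0.112 without any 1 of control vehicle 1 and 2 or control dDAVP 2 and 3. Slc16a3, the lactate exporter MCT4, was below the count limit, with summed counts of 25 and 29 in the control vehicle and control dDAVP groups.

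The called acid-base carriers were all sodium-coupled bicarbonate transporters, and all fell. Slc4a4, the electrogenic cotransporter NBCe1 (gene identifier 54403, chromosome 5 from 88793858 to 89239656), fell from 72.01, 78.1 and 76.04 to 62.1, 62.9 and 68.6 CPM (-0.22 ± 0.05, adjusted p = 0.00590). Slc4a5, the related NBCe2, fell from 3.83, 3.37 and 4.58 to 2.52, 2.35 and 2.91 CPM (-0.60 ± 0.14, adjusted p = 0.00620). Slc4a8 was lower (-0.20 ± 0.05, adjusted p = 0.00746). Slc4a2, the widely expressed chloride and bicarbonate exchanger AE2, was at 224, 225 and 230.4 CPM with vehicle and at 232, 235 and 225 CPM with dDAVP (0.03 ± 0.03, adjusted p = 0.642). This exchanger was not called.

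In family 12, which couples chloride to sodium or potassium, the inward and outward carriers were called in opposite directions. Slc12a4, the potassium and chloride cotransporter KCC1 (gene identifier 20498, chromosome 8 from 105943590 to 105966149), fell from 40.1, 39.3 and 38.9 to 30.9, 30.9 and 30.8 CPM (-0.35 ± 0.05, adjusted p = 0.000133), without overlap. Slc12a2, the inward sodium, potassium and chloride cotransporter NKCC1, rose from 159.5, 151 and 150.2 to 189, 169 and 161 CPM (0.17 ± 0.05, adjusted p = 0.0263), but its adjusted p was from 0.0507 to 0.183 without any 1 of control vehicle 2 and 3 or control dDAVP 1 and 2. Slc12a7, a relative of Slc12a4, was not called (0.00 ± 0.04). The magnesium carriers of family 41 also split. Slc41a2 rose from 10.1, 9.02 and 9.68 to 15.3, 13.9 and 13.4 CPM (0.56 ± 0.08, adjusted p = 8.78e-05), and Slc41a1 fell (-0.18 ± 0.05, adjusted p of 0.0142, and from 0.0617 to 0.0864 without any 1 of control vehicle 2 or control dDAVP 2). Both phosphate carriers fell by small amounts. For Slc20a1 (-0.15 ± 0.05) the adjusted p was 0.0397, and from 0.0619 to 0.139 without any 1 of control vehicle 1, 2 and 3 or control dDAVP 2 and 3. For Slc20a2 (-0.13 ± 0.03) it was 0.0109, and 0.05003 without control vehicle 3.

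The organic cation and carnitine carriers Slc22a4 (gene identifier 30805, chromosome 11 from 53983115 to 54030040) and Slc22a5 rose together. Slc22a4, which takes up ergothioneine, went from 3.83, 4.67 and 4.88 to 6.42, 6.14 and 6.86 CPM (0.54 ± 0.11, adjusted p = 0.00246). Slc22a5, the carnitine transporter OCTN2, rose (0.28 ± 0.06, adjusted p = 0.00311). Slc22a23, an orphan of the family, rose from 66.7, 65.2 and 67.9 to 84.4, 78.1 and 77.5 CPM (0.27 ± 0.04, adjusted p = 0.000308). Slc22a29, a rodent organic anion carrier with close copies, fell (-0.24 ± 0.06, adjusted p of 0.00988, and 0.0569 without control dDAVP 2). Of the vitamin carriers, Slc46a1, the folate transporter of acid pH, fell from 9.99, 10.6 and 10.95 to 8.31, 8.01 and 8.70 CPM (-0.33 ± 0.08, adjusted p = 0.00461). Slc19a2, a thiamine transporter, rose (0.29 ± 0.06, adjusted p = 0.00281).

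Among the 21 genes of family 35, most of which bring nucleotide sugars into the Golgi and endoplasmic reticulum, 3 rose and 1 fell. Slc35g1 rose from 57.9, 50.4 and 56.8 to 83.98, 69.8 and 73.1 CPM (0.46 ± 0.08, adjusted p = 0.000864). Slc35a3, the carrier of UDP-N-acetylglucosamine, rose (0.44 ± 0.06, adjusted p = 3.16e-05). Slc35e3, of unknown substrate, fell (-0.20 ± 0.05, adjusted p = 0.00736). The scaffold Slc9a3r1, known as NHERF1, rose by 0.17 ± 0.04, with an adjusted p of 0.00678, and 0.0525 without control dDAVP 2. Slc27a4, a fatty acid transport protein, rose by 0.16 ± 0.04, and Slc44a4, a choline transporter-like protein, by 0.25 ± 0.05. The remaining calls were small and each was lost without at least 1 library. Slc25a1, the mitochondrial citrate carrier, rose (0.14 ± 0.04, adjusted p of 0.0136, and from 0.0580 to 0.0699 without any 1 of control vehicle 1 and 2 or control dDAVP 2), as did Slc31a1, the copper importer CTR1 (0.13 ± 0.04, adjusted p of 0.0164, and from 0.0518 to 0.104 without any 1 of control vehicle 2 or control dDAVP 1 and 2). Slc23a2, an ascorbate transporter (0.15 ± 0.05, adjusted p of 0.0328, and from 0.0809 to 0.166 without any 1 of control vehicle 2 and 3 or control dDAVP 1 and 3), and Slc35b1 (0.20 ± 0.05, adjusted p of 0.0116, and from 0.0505 to 0.0669 without any 1 of control vehicle 2 or control dDAVP 3) rose. Slc39a6, a zinc importer (-0.15 ± 0.05, adjusted p of 0.0468, and from 0.0518 to 0.186 without any 1 of control vehicle 1 and 2, control dDAVP 1 and 2, TAZ vehicle 2 or TAZ dDAVP 3), fell. Slc37a3 (-0.13 ± 0.03, adjusted p of 0.00916, and from 0.0501 to 0.0531 without any 1 of control vehicle 1 or control dDAVP 3) and Slc6a17 (-0.14 ± 0.04, adjusted p of 0.0134, and from 0.0522 to 0.0713 without any 1 of control vehicle 1 or control dDAVP 2 and 3) fell too. Slc31a1 and Slc39a6 were the calls among the 16 transition metal carriers.

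Loci that overlap another gene limit some of these readings, because no source used here says whether the counting used strand. Slc16a6 overlaps Arsg and Gm45916, Slc25a25 overlaps Naif1, Slc25a35 overlaps Rangrf and Slc46a1 overlaps Sarm1, each with a mean count of at least 10% of the carrier's. None of these 5 overlapping genes was called with dDAVP under either siRNA. Slc16a5 overlaps Gm11695, which was not called with control siRNA (0.13 ± 0.15) and rose with TAZ siRNA (0.53 ± 0.15, adjusted p = 0.0306).

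Promoter windows were read because dDAVP acts through cAMP, and the cAMP response element is TGACGTCA. RefSeq windows of 300 bases, 250 before to 50 after a transcript start on GRCm38.p6, were found for 140 of the 181 genes. The full element was present in 3 of these, or 2.14%, against 3.38% of the tested genes with a window and 2.03% of all 27025 genes with a window. The 3 genes were Slc25a25, Slc25a36 and Slc38a6, and all 3 were among the 32 risers with a window (9.38%), with 0 among the 108 others. Of all tested genes that rose, 3.84% had it. The shorter core TGACG, which is also contained in the full element and was searched on both strands, was in 33.6% of the SLC genes, 43.8% of the SLC risers, 33.7% of tested genes, 37.2% of the tested genes that rose and 23.045% of all genes with a window. The windows of the 3 genes are shown in transcript direction on chr2:32424017-32424316 (minus strand), chr9:97110992-97111291 (minus strand) and chr12:73286598-73286897 (plus strand), with the element in capitals; it begins 150, 161 and 121 bases before the start site.
Slc25a25: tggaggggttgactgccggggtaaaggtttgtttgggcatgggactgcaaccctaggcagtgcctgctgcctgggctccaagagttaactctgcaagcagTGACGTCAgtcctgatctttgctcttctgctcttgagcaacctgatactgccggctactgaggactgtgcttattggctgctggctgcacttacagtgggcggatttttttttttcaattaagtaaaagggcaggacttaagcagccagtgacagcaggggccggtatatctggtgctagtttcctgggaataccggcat
Slc25a36: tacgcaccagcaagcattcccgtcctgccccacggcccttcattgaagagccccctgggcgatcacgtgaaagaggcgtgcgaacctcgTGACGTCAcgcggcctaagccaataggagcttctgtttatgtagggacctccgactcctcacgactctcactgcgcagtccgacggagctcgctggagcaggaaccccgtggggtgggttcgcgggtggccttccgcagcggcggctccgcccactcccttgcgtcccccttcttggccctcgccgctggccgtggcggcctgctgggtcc
Slc38a6: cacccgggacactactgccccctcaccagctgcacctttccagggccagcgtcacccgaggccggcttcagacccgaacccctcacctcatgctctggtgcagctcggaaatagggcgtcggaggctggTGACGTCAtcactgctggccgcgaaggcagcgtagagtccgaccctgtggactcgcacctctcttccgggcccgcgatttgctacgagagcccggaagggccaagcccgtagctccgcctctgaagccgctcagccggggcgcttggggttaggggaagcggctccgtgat
The Slc25a25 window belongs to 1 of its starts. Transcript NM_001290558, chosen for this window after its values were seen, was at 7.99, 7.41 and 6.54 CPM in the control vehicle libraries and at 10.004, 12.1 and 10.1 CPM in the control dDAVP libraries. The other main transcript, NM_001164357, was at 9.83, 11.1 and 11.005 CPM and then 15.1, 12.1 and 15.6 CPM, so both were higher in every dDAVP library than in any vehicle library. Scaled to library size, with TAZ siRNA NM_001290558 was at 6.45, 5.32 and 6.44 CPM with vehicle and at 14.9, 14.2 and 13.6 CPM with dDAVP. NM_001164357 was at 9.08, 13.2 and 14.4 CPM with vehicle and at 11.2, 10.8 and 12.9 CPM with dDAVP, and its groups overlapped. How counts were shared between transcripts was not tested. A match of letters is a description of the window, and binding there was not measured.

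The second comparison asked the same of cells with TAZ siRNA. Here 31 carriers were called higher and 4 lower, 35 of 181 or 19.3%, against 10.8% of all genes tested (6.38% higher and 4.41% lower) and 13.7% of genes with a mean count of at least 100. In 26 of the 35 the call held in all 12 fits without 1 library, 23 higher and 3 lower. By substrate, 9 of 39 mitochondrial carriers, 4 of 17 amino acid and peptide carriers, 3 of 14 vitamin carriers, 3 of 10 sugar carriers, 3 of 9 organic ion carriers and 2 of 6 carboxylate carriers were higher, with 0 lower in these groups. Among acid-base exchangers 1 of 16 was lower. This comparison shares no library with the first. Of the carriers called with control siRNA, 32 were called again in the same direction (28 higher and 4 lower), which is 57.1% of the first list and 91.4% of the second. Over all genes tested 1300 were called in both in the same direction, 42.5% of the first list and 75.6% of the second, and over genes with a mean count of at least 100 the shares were 43.6% and 77.3%. Whether recurrence among the carriers differs from these shares was not tested. Across all 181 genes the log2 fold changes of the 2 comparisons had a Pearson r of 0.87, given as a description since genes are not independent replicates.

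Many of the larger changes recurred. Slc25a48 rose from 37.6, 33.04 and 34.5 to 58.2, 62.2 and 55.04 CPM (0.74 ± 0.06, adjusted p = 3.94e-07). Slc22a4 rose by 0.70 ± 0.11, Slc25a35 by 0.62 ± 0.13, Slc16a5 by 0.57 ± 0.11, Slc35g1 by 0.54 ± 0.08 and Slc41a2 by 0.50 ± 0.08. Slc25a30 rose by 0.45 ± 0.06, Slc25a25 by 0.45 ± 0.06, Slc45a3 by 0.37 ± 0.06 and Slc43a2 by 0.36 ± 0.06. Slc45a4 rose by 0.33 ± 0.04, Slc25a10 by 0.33 ± 0.04, Slc25a13 by 0.33 ± 0.04 and Slc22a5 by 0.31 ± 0.06. Slc16a6 rose (0.31 ± 0.09, adjusted p of 0.0251, and from 0.0712 to 0.125 without any 1 of TAZ vehicle 1 or TAZ dDAVP 1 and 3). Slc3a2 rose by 0.20 ± 0.03, Slc38a6 by 0.25 ± 0.05, Slc35a3 by 0.28 ± 0.06, Slc19a2 by 0.27 ± 0.06, and Slc22a23 by 0.24 ± 0.04. Slc25a36 rose (0.25 ± 0.07, adjusted p of 0.0250, and from 0.0743 to 0.116 without any 1 of TAZ vehicle 2 and 3 or TAZ dDAVP 2 and 3). Slc27a4 (0.21 ± 0.04) and Slc9a3r1 (0.20 ± 0.04) rose, as did Slc44a4 (0.17 ± 0.05, adjusted p of 0.0272, and from 0.0580 to 0.140 without any 1 of TAZ vehicle 1 and 2 or TAZ dDAVP 1 and 3) and Slc25a5 (0.14 ± 0.04, adjusted p of 0.0402, and from 0.0527 to 0.194 without any 1 of control vehicle 1, control dDAVP 1, 2 and 3, TAZ vehicle 1 and 2 or TAZ dDAVP 1 and 3). Slc25a33 was uneven, at 2.87, 3.95 and 5.29 CPM with dDAVP after 2.55, 2.39 and 2.44 CPM with vehicle (0.70 ± 0.17, adjusted p = 0.00955, and 0.0657 without TAZ dDAVP 3). Of the 4 that fell, Slc12a4 went from 44.9, 43.6 and 50.7 to 36.8, 34.3 and 36.9 CPM (-0.37 ± 0.05). The others were Slc6a8 (-0.33 ± 0.06), Slc29a3 (-0.18 ± 0.04) and Slc4a4 (-0.23 ± 0.05, adjusted p of 0.00896, and from 0.0520 to 0.0548 without any 1 of TAZ vehicle 2 or TAZ dDAVP 3).

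Carriers called with TAZ siRNA and not with control siRNA were Slc29a1, the equilibrative nucleoside transporter ENT1 (0.17 ± 0.05, adjusted p of 0.0369, and from 0.0507 to 0.197 without any 1 of control vehicle 1, control dDAVP 2 and 3, TAZ vehicle 1 and 2 or TAZ dDAVP 1 and 3), and Slc7a7, a light chain of Slc3a2 that exchanges cationic amino acids (0.22 ± 0.06, adjusted p of 0.0149, and from 0.0630 to 0.0648 without any 1 of TAZ vehicle 2 or TAZ dDAVP 3). A further one was Slc52a2, a riboflavin transporter (0.19 ± 0.06, adjusted p of 0.0332, and from 0.0521 to 0.141 without any 1 of control dDAVP 3, TAZ vehicle 1, 2 and 3 or TAZ dDAVP 1 and 2). Carriers called with control siRNA and not with TAZ siRNA numbered 24 and included Slc2a4 (-0.42 ± 0.15 with TAZ siRNA, adjusted p = 0.0898), Slc4a5 (-0.34 ± 0.15, adjusted p = 0.156), Slc46a1 (-0.09 ± 0.08), Slc16a1 (0.09 ± 0.04) and Slc25a4 (0.03 ± 0.04). The difference between the 2 responses was tested directly. It was called for 0 of the 181 carriers, against 0.0314% of all genes (5 genes), and DESeq2 also called 0. By edgeR, 16 carriers had an unadjusted p under 0.05, 9 of them with a positive difference (a greater rise or a lesser fall under TAZ siRNA) and the others with a negative one. The lowest adjusted p was 0.247, for Slc6a17, a vesicular carrier of neutral amino acids (0.20 ± 0.05).

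**Figure D4:**
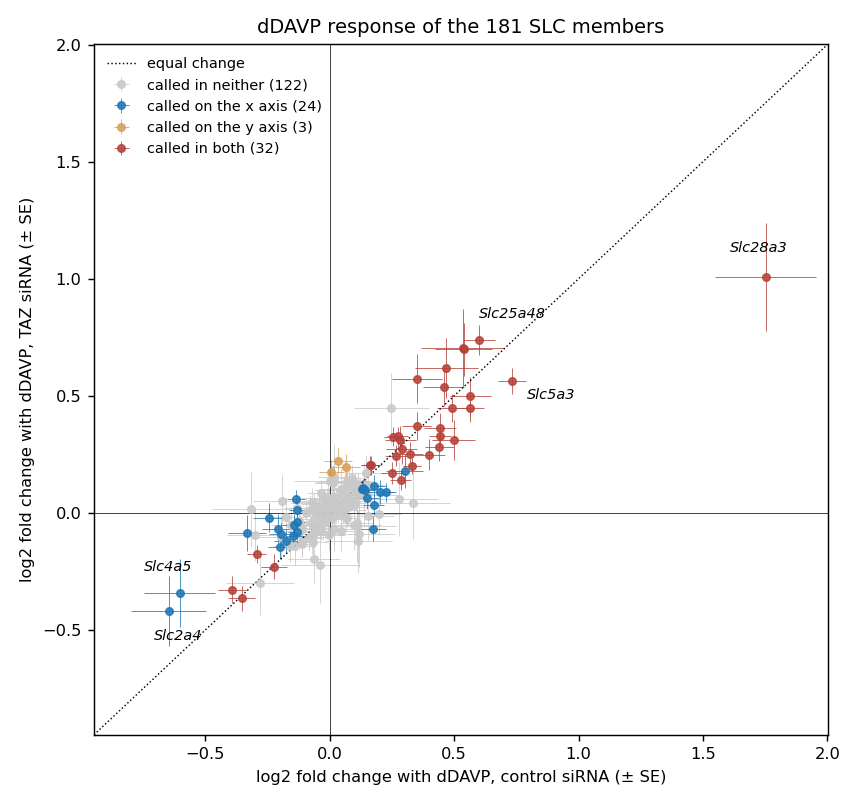
Log2 fold change with dDAVP in cells with control siRNA (x axis) and with TAZ siRNA (y axis) for the 181 SLC genes, with bars of 1 SE; colours give the comparison in which a gene was called and the dotted line marks equal change. The 32 genes called in both lay in the upper right (28) and lower left (4).

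The remaining comparisons asked what the TAZ siRNA changed, first with vehicle. There 10 carriers were called higher and 8 lower, 18 of 181 or 9.94%, against 6.3% of all genes tested (3.19% higher and 3.11% lower) and 8.12% of genes with a mean count of at least 100. The median log2 change was 0.01, against 0.00 over all genes. The call held in all 12 fits without 1 library for 7 of the 18. The count itself fell to 10 without TAZ vehicle 2 or 3 and to 11 without control vehicle 1 or 3.

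Among the called carriers Slc16a5, the monocarboxylate carrier MCT6, was lowered most, from 13.9, 15.2 and 16.8 CPM with control siRNA to 8.91, 9.47 and 10.2 CPM with TAZ siRNA (-0.69 ± 0.10, adjusted p = 0.000975). Slc4a4 was lowered from 72.01, 78.1 and 76.04 to 59.02, 61.6 and 56.5 CPM (-0.35 ± 0.05, adjusted p = 0.000847), and Slc25a48 from 45.5, 41.1 and 46.7 to 37.6, 33.04 and 34.5 CPM (-0.34 ± 0.07, adjusted p = 0.00433). In each of these the groups did not overlap. Gm11695, whose locus overlaps that of Slc16a5, was not called here (-0.45 ± 0.15, adjusted p = 0.0945). With dDAVP the TAZ siRNA difference of Gm11695 was -0.04 ± 0.15, also not called. Slc40a1, the iron exporter ferroportin (gene identifier 53945, chromosome 1 from 45908070 to 45926532), was lowered from 98.1, 88.97 and 95.5 to 83.1, 71.3 and 71.5 CPM (-0.32 ± 0.06, adjusted p = 0.00377). Slc22a23 (-0.23 ± 0.04) and Slc25a13 (-0.22 ± 0.04) were lower too, and these 6 calls held without any 1 library. Slc25a20, the carnitine and acylcarnitine carrier, was lower (-0.24 ± 0.05, adjusted p = 0.0106, and 0.0535 without TAZ vehicle 3). Slc30a9, of the zinc efflux family, was lower (-0.12 ± 0.03, adjusted p of 0.0425, and from 0.0556 to 0.153 without any 1 of control vehicle 1, 2 and 3, TAZ vehicle 2 and 3 or TAZ dDAVP 3).

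The carriers raised by the TAZ siRNA with vehicle included 4 of 17 for amino acids and peptides (23.5%, with 0 lower). Of all genes tested 3.19% were called higher, and the group was not tested against the others. With dDAVP 1 of the 17 was called higher and 1 lower. The 4 raised with vehicle each lost the call without at least 1 library. Slc7a5 went from 70.5, 69.3 and 73.8 to 76.1, 97.6 and 91.3 CPM (0.31 ± 0.07, adjusted p = 0.0101), with TAZ vehicle 1 close to the control range and an adjusted p of 0.0592 without TAZ vehicle 2. Slc1a4, the ASCT1 carrier of small neutral amino acids, was raised too (0.27 ± 0.07, adjusted p of 0.0358, and from 0.0547 to 0.173 without any 1 of control vehicle 1, 2 and 3, control dDAVP 3 or TAZ vehicle 2 and 3). Slc43a2 (0.24 ± 0.06, adjusted p of 0.0342, and from 0.0504 to 0.202 without any 1 of control vehicle 1 and 3, control dDAVP 1 and 2 or TAZ vehicle 2 and 3) and Slc3a2 (0.13 ± 0.03, adjusted p of 0.0335, and from 0.0528 to 0.134 without any 1 of control vehicle 1, 2 and 3, control dDAVP 2 and 3 or TAZ vehicle 2 and 3) were the others. Slc39a13, the zinc transporter ZIP13, was raised from 20.4, 20.5 and 20.9 to 22.7, 25.6 and 26.1 CPM (0.27 ± 0.06, adjusted p = 0.00653), and it was the single raised carrier whose call held without any 1 library. Slc12a4 was raised (0.23 ± 0.05, adjusted p of 0.0131, and from 0.0554 to 0.0873 without any 1 of control vehicle 3 or TAZ vehicle 3). Slc4a11 (0.25 ± 0.06, adjusted p of 0.0195, and from 0.0694 to 0.115 without any 1 of control vehicle 1 and 2 or TAZ vehicle 2 and 3) and the scaffold Slc9a3r2 (0.24 ± 0.06, adjusted p of 0.0228, and from 0.0595 to 0.113 without any 1 of control vehicle 1 and 3 or TAZ vehicle 2 and 3) were raised as well. So were Slc25a24 (0.16 ± 0.04, adjusted p of 0.0113, and from 0.0602 to 0.0864 without any 1 of control vehicle 3 or TAZ vehicle 2 and 3) and Slc25a37, the mitochondrial iron carrier mitoferrin 1 (0.17 ± 0.04, adjusted p of 0.0171, and from 0.0642 to 0.104 without any 1 of control vehicle 1 and 2 or TAZ vehicle 2).

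With dDAVP, the TAZ siRNA gave 12 carriers called higher and 13 lower, 25 of 181 or 13.8%, against 10.7% of all genes tested (5.77% higher and 4.97% lower) and 13.7% of genes with a mean count of at least 100, a share like that of genes of similar count. The call held in all 12 fits without 1 library for 7 of the 25. The 13 and the 7 include Slc28a3, admitted only through the control dDAVP libraries. The count fell to 10 without TAZ dDAVP 1, to 14 without TAZ dDAVP 3 or control dDAVP 3, to 15 without control dDAVP 2 and to 16 without control dDAVP 1. This comparison shares no library with that in vehicle, and 14 carriers were called in both in the same direction (6 higher and 8 lower), 77.8% of the 18 and 56.0% of the 25. Over all genes tested the shares were 57.9% and 33.96%, and the difference was not tested. Pearson's r over the 181 genes was 0.74.

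Slc28a3, whose inclusion rests on the reference group of this comparison, was at 1.49, 1.93 and 1.30 CPM against 4.91, 4.87 and 3.62 CPM (-1.50 ± 0.20, given as a description). It was not called with vehicle (-0.76 ± 0.23, adjusted p = 0.0632). Its promoter window, chr13:58610828-58611127 on the minus strand, holds 1 copy of GGAATG, the element bound by TEAD factors, 122 bases before the start and shown in capitals. On either strand, GGAATG was in 21.4% of the SLC genes with a window, 15.0% of tested genes and 16.6% of all genes with a window. Its share among the carriers lowered by the TAZ siRNA was not computed. Binding to this window was not measured.
Slc28a3: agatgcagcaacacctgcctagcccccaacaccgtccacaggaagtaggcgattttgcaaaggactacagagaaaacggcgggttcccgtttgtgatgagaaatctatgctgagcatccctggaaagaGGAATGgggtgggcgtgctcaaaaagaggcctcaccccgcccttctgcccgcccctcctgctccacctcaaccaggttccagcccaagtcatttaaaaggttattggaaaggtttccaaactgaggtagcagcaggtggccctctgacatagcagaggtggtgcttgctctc
Slc16a5 was lower with TAZ siRNA under dDAVP as well, at 14.03, 16.4 and 12.1 CPM against 17.3, 21.3 and 19.98 CPM (-0.46 ± 0.10, adjusted p = 0.00680). Slc4a4, at 48.8, 54.5 and 47.7 CPM against 62.1, 62.9 and 68.6 CPM (-0.36 ± 0.05, adjusted p = 0.000323), and Slc25a13, at 87.3, 93.5 and 86.5 CPM against 110.1, 112 and 115 CPM (-0.33 ± 0.04, adjusted p = 6.49e-05), did not overlap between the siRNAs. Slc22a23 (-0.25 ± 0.04) and Slc30a9 (-0.15 ± 0.03) were lower in all 12 fits without 1 library. Slc40a1 was lower (-0.25 ± 0.06, adjusted p = 0.0103, and 0.0545 without control dDAVP 1).

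The control dDAVP libraries enter both this comparison and that of dDAVP with control siRNA, so differences in opposite directions in the 2 comparisons are not independent of each other. Slc5a3 was at 87.4, 98.3 and 88.4 CPM against 114, 102 and 99.3 CPM (-0.20 ± 0.06, adjusted p of 0.0267, and from 0.110 to 0.137 without any 1 of control dDAVP 1 or TAZ dDAVP 1 and 3), a pair of groups that lay next to each other with a gap of under 1 SD. Slc25a30 was lower too (-0.25 ± 0.06, adjusted p of 0.0103, and from 0.0512 to 0.0576 without any 1 of control dDAVP 1 or TAZ dDAVP 1). Slc12a2 (-0.22 ± 0.05, adjusted p of 0.0101, and from 0.0503 to 0.0589 without any 1 of control dDAVP 1 or TAZ dDAVP 3) and Slc25a48 (-0.20 ± 0.06, adjusted p of 0.0476, and from 0.0628 to 0.204 without any 1 of control vehicle 1, control dDAVP 1 and 3 or TAZ dDAVP 1 and 3) were also lower. Slc25a20 (-0.18 ± 0.05, adjusted p of 0.0355, and from 0.0557 to 0.116 without any 1 of control dDAVP 2 and 3 or TAZ dDAVP 1, 2 and 3) and Slc7a1 (-0.11 ± 0.03, adjusted p of 0.0334, and from 0.0521 to 0.139 without any 1 of control dDAVP 1 and 2 or TAZ dDAVP 1 and 3), which were not called with dDAVP, were lower as well.

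Of the 12 carriers raised under dDAVP, Slc39a13 (0.25 ± 0.06, adjusted p = 0.00686) was the single one whose call held without any 1 library. Slc46a1 was at 8.31, 8.01 and 8.70 CPM with control siRNA and at 10.2, 10.6 and 9.48 CPM with TAZ siRNA (0.28 ± 0.08, adjusted p of 0.0272, and from 0.0733 to 0.107 without any 1 of control dDAVP 1 and 2 or TAZ dDAVP 1 and 2). Slc12a4 (0.22 ± 0.05, adjusted p of 0.0132, and from 0.0564 to 0.0638 without any 1 of control dDAVP 3 or TAZ dDAVP 1 and 3) and Slc4a11 (0.22 ± 0.06, adjusted p of 0.0273, and from 0.0620 to 0.129 without any 1 of control dDAVP 1, 2 and 3 or TAZ dDAVP 1 and 3) were raised as with vehicle. Slc9a3r2 (0.22 ± 0.06, adjusted p of 0.0226, and from 0.0531 to 0.138 without any 1 of control dDAVP 1 and 2 or TAZ dDAVP 1 and 3) and Slc1a4 (0.23 ± 0.07, adjusted p of 0.0489, and from 0.0542 to 0.202 without any 1 of control vehicle 1, 2 and 3, control dDAVP 2 and 3, TAZ vehicle 2 and 3 or TAZ dDAVP 1 and 2) were as well. Slc20a1 (0.17 ± 0.05, adjusted p of 0.0248, and from 0.0550 to 0.125 without any 1 of control dDAVP 2 and 3 or TAZ dDAVP 1 and 2) and Slc6a17 (0.14 ± 0.04, adjusted p of 0.0203, and from 0.0638 to 0.112 without any 1 of control dDAVP 2 and 3 or TAZ dDAVP 1 and 2) were raised here and not with vehicle, a difference that was not called for either. Slc44a2, a choline transporter-like protein, was raised (0.14 ± 0.03, adjusted p of 0.0157, and from 0.0503 to 0.0937 without any 1 of control dDAVP 1, 2 and 3 or TAZ dDAVP 1 and 3). The mitochondrial carriers Slc25a39 (0.14 ± 0.04, adjusted p of 0.0475, and from 0.0507 to 0.211 without any 1 of control vehicle 1 and 2, control dDAVP 1, 2 and 3, TAZ vehicle 2 or TAZ dDAVP 1, 2 and 3), Slc25a23 (0.12 ± 0.03, adjusted p of 0.0256, and from 0.0547 to 0.148 without any 1 of control dDAVP 1 and 3 or TAZ dDAVP 1, 2 and 3) and Slc25a24 (0.12 ± 0.04, adjusted p of 0.0419, and from 0.0541 to 0.185 without any 1 of control vehicle 1, control dDAVP 2 and 3, TAZ vehicle 2 and 3 or TAZ dDAVP 1 and 2) made up the rest. Apart from Slc39a13, each of these calls was lost without at least 1 library.

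**Figure D5:**
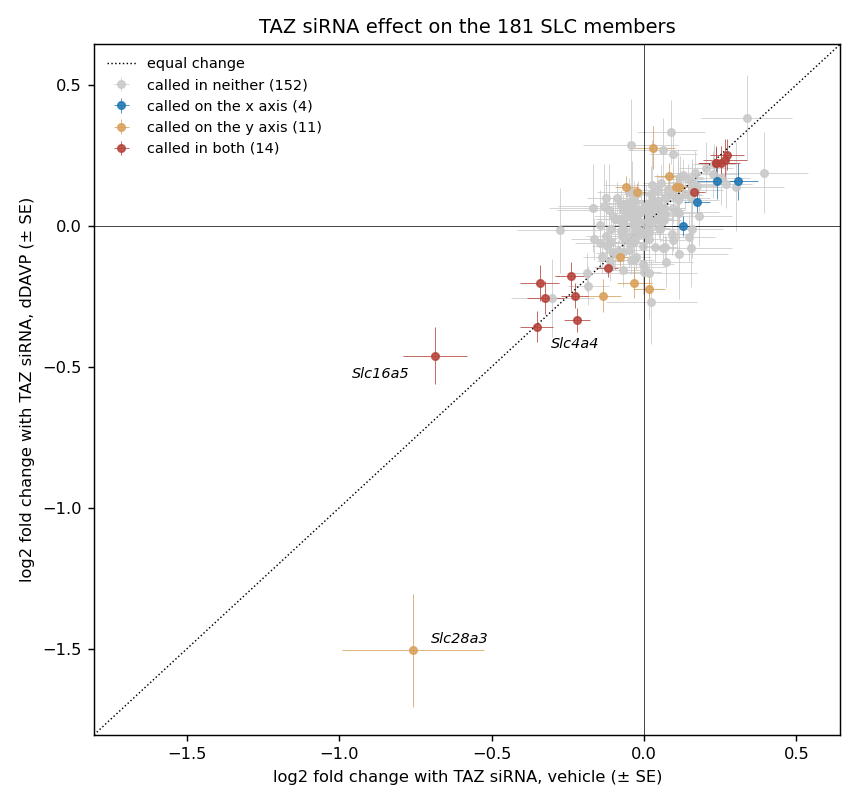
Log2 fold change with TAZ siRNA against control siRNA in vehicle (x axis) and in dDAVP (y axis) for the 181 SLC genes, with bars of 1 SE; colours give the comparison in which a gene was called and the dotted line marks equal change. Slc28a3, at -0.76 and -1.50, and Slc16a5, at -0.69 and -0.46, lay farthest from 0.

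Over the 4 comparisons, 72 carriers were called at least once, 109 in none and 6 in all 4. The same counts over all genes tested were not made, so these have no background beside them. In the single comparisons 19.2, 10.8, 6.3 and 10.7% of all genes tested were called. Comparisons that involve the same group share its libraries, so the 6 are set side by side as values. Slc16a5, Slc22a23, Slc25a13 and Slc25a48 were higher with dDAVP and lower with TAZ siRNA. Slc12a4 was lower with dDAVP and higher with TAZ siRNA, and Slc4a4 was lower with both. Without at least 1 library, calls were lost for Slc16a5 (dDAVP with control siRNA) and Slc4a4 (dDAVP with TAZ siRNA). So were those of Slc25a48 (TAZ siRNA with dDAVP) and Slc12a4 (TAZ siRNA with vehicle and with dDAVP). In Slc4a4 the group means stepped down from 75.4 ± 3.11 CPM (control vehicle) to 64.5 ± 3.53 (control dDAVP), 59.03 ± 2.56 (TAZ vehicle) and 50.3 ± 3.65 CPM (TAZ dDAVP, SD, n = 3 each). The control dDAVP and TAZ vehicle groups, next to each other in that order, came within 1 SD of each other's nearest library.

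Other transporters of SLC families that carry different symbols, and partners of the carriers, gave context from lists chosen with earlier results of these data known. Of 32 tested genes of SLC families under other symbols, 6 were higher and 1 lower with dDAVP and control siRNA, with a median of 0.01, against 19.2% of all genes tested called in either direction. That share is also the background of the list counts that follow, and no list was tested against it. Nipal1, a magnesium transporter, went from 7.05, 6.197 and 6.44 to 35.97, 29.6 and 30.5 CPM (2.28 ± 0.08, adjusted p = 2.52e-12), a larger change than that of any of the 181. Of 6 tested Slco organic anion transporters 2 were higher and 1 lower. Slco2a1, the prostaglandin transporter, rose from 16.9, 14.8 and 15.7 to 50.4, 49.5 and 42.95 CPM (1.59 ± 0.09, adjusted p = 1.31e-09) and was lower with TAZ siRNA under both vehicle (-0.51 ± 0.10) and dDAVP (-0.83 ± 0.09).

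Of 17 tested partners and regulators 7 were higher and 1 lower with dDAVP and control siRNA. Bsg, the chaperone of the lactate transporters MCT1 and MCT4, rose (0.22 ± 0.04, adjusted p = 0.000400). Wnk4, a kinase upstream of cation and chloride cotransporters, rose (0.32 ± 0.04, adjusted p = 1.35e-05). Nfat5, the factor that drives osmolyte carriers in hypertonic medium, fell from 1209, 1248 and 1138 to 1018, 917 and 968 CPM (-0.31 ± 0.05, adjusted p = 0.000366), while Slc5a3, one of its known targets, rose, and Slc6a6, another, was not called.

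Carriers that mark other nephron segments had few counts or none. Slc12a1 of the thick ascending limb, Slc26a4 of intercalated cells, and Slc22a6 and Slc5a12 of the proximal tubule had no count in any library, and Slc34a1 had 4 counts in 1 library. Slc12a3 of the distal convoluted tubule had 77 counts over 11 libraries. Slc4a1, the bicarbonate exchanger of acid-secreting intercalated cells, had 33 counts over 7 libraries. Of the 7 intercalated cell markers, Slc26a4, Foxi1 and Kit were at 0, and nearly all of the list's level came from Atp6v1b1 and Aqp6, at 93.5 ± 2.95 and 17.4 ± 0.482 CPM in the control vehicle group. The summed level of the list ran from 107 to 113 CPM in the control vehicle libraries and from 132 to 141 CPM in the control dDAVP libraries. It ran from 89.5 to 104 CPM in the TAZ vehicle libraries and from 119 to 134 CPM in the TAZ dDAVP libraries. The 10 principal cell markers summed to 500 to 539, 531 to 578, 459 to 507 and 507 to 536 CPM in the same order. Most of this level came from Gata3, Hsd11b2 and Scnn1a, at 201 ± 7.38, 156 ± 11.5 and 129 ± 0.574 CPM in the control vehicle group. Of the 8 principal cell markers tested 4 were called higher and 1 lower with dDAVP and control siRNA. Aqp2, Aqp3, Avpr2 and Gata3 were higher, and Scnn1a was lower (-0.51 ± 0.03, adjusted p = 2.34e-09). The calls of Aqp3 and Gata3 were each lost in 3 fits without 1 library. Aqp4 and Elf5 were too low to be tested. The 6 proximal tubule markers, with Slc5a12 and Slc22a6 at 0, summed to 180.4 to 189.7, 153 to 169, 139 to 154 and 125 to 136 CPM. Nearly all of this was 1 gene, Lrp2, which encodes megalin, at 183 ± 5.11, 158 ± 9.08, 144 ± 7.80 and 128 ± 6.15 CPM. Lrp2 was called lower with dDAVP under control siRNA (-0.21 ± 0.05) and with TAZ siRNA under vehicle (-0.34 ± 0.05) and dDAVP (-0.30 ± 0.05). With dDAVP under TAZ siRNA its call (-0.17 ± 0.05, adjusted p = 0.0252) was lost in 4 fits, without TAZ vehicle 1 or 2 or TAZ dDAVP 1 or 3, with an adjusted p of up to 0.114. These sums moved with the groups, and their part in the carriers' changes was not tested. Fibroblast and endothelial lists stayed at or under 1.77 and 0.275 CPM, and the immune list at or under 4.52 CPM.

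Slc14a2, the vasopressin-regulated urea transporter of the collecting duct, lay far below the limit of 100 counts and was not tested. It had 0 counts in all 6 vehicle libraries, 9, 7 and 8 counts in the control dDAVP libraries and 15, 10 and 15 in the TAZ dDAVP libraries. Set against the 3 counts that a count of 0 over a group allows, the dDAVP sums were 7.37-fold higher with control siRNA and 16.1-fold higher with TAZ siRNA. The 3 counts cover the counting error of the 0 only, and the counting error of the dDAVP sums was not included.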

How the data were processed

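RNA-seq libraries of mpkCCDc11 cells, 3 in each of 4 groups, were analysed. The deposited values used here are estimated counts per gene, already whole numbers, estimated counts per transcript, and FPKM per gene, all made by the authors. Bowtie 0.12.2 and the builds mm8 and mm10 appear in the submitters' processing notes without a role, the labels' protocols name 2 TruSeq kits, and no source used here names the counter or its use of strand. Per the file headers, dDAVP is written dDAUP. Another 36 per-sample columns were not used here, and 12 of 549324 gene counts differed from the sum of their transcripts.

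Gene counts were fitted in edgeR 4.0.16 (limma 3.58.1, R 4.3.3) with TMM scaling (factors 0.9885 to 1.013), filterByExpr at a minimum count of 10, all 12 libraries and 1 coefficient per group. The robust quasi-likelihood F test was adjusted by Benjamini-Hochberg over 15932 tested genes, which held 99.98% of the counts, of the 24656 genes with a count, and a call is an adjusted p under 0.05. The coefficient of biological variation was 5.11%. CPM used the TMM-scaled totals, and between-gene levels used the FPKM deposited by the authors. The script was tested on simulated data. Total counts per library were 45095331 to 61725339. Fold values set against a count of 0 (3 counts) cover the counting error of that 0 only. Replicates differed by more than sampling noise (chi-square over its degrees of freedom 4.20 to 13.2), so none was counted as a repeat.

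The members, their substrate groups and the other gene lists were chosen with earlier results of these data known. The text names, for each comparison, the 12 most raised and 12 most lowered called members, the 5 highest by FPKM, carriers known from the collecting duct and those beside the count limit, and, chosen after their values were seen, the remaining called members. Same-numbered libraries did not deviate together (0 of 18 pairs of deviations with r over 0.1, from -0.05 to 0.06), so the numbers do not pair the samples. Alternatives were DESeq2 1.42.0, its size factors, no low-count filter, the compared groups alone, the replicate number as a block, each library left out, and, chosen after seeing the data, library totals in place of TMM. Promoter windows are from RefSeq on GRCm38.p6.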

Additional observations from a re-analysis of the deposited data

How the results depend on the processing

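The number of SLC genes called was 56, 35, 18 and 25 (dDAVP with control siRNA, dDAVP with TAZ siRNA, TAZ siRNA with vehicle, TAZ siRNA with dDAVP). In the same order it was 59, 36, 21 and 29 by DESeq2, 56, 35, 18 and 23 with DESeq2's size factors, 54, 32, 17 and 20 without the low-count filter, 58, 29, 14 and 25 with the compared groups alone, and 56, 34, 17 and 28 with library totals in place of TMM, an alternative chosen after seeing the data. With the replicate block the counts were 56, 34, 17 and 22; since the numbers were not found to pair the samples, this is a description. Leaving out each library in turn gave 44 to 57, 27 to 37, 10 to 21 and 10 to 27 in fits with fewer libraries. The difference between the dDAVP responses was called for 0 SLC genes in every one of these fits in which it was computed. Of 166 gene and comparison values chosen by the naming rule, 95 were called; none reversed, 53 kept the call under every alternative, 42 lost it without at least 1 library and 14 under at least 1 other alternative, and 7 uncalled values passed under at least 1. Those 14 were small changes, such as Slc1a4, Slc25a24 and Slc25a39 with TAZ siRNA and dDAVP. Depth limits the reading of called genes with low counts, such as Slc28a3 and Slc2a4, near the limit for inclusion, and Slc4a5, Slc25a33 and Slc25a35.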
